A study of Homo sapiens with 9 samples.

Results

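Glycolysis and the transcriptional response to low oxygen were followed through 33 genes in the RNA-seq of SNU-398 cells, a human hepatocellular carcinoma (HCC) cell line. The genes were chosen by name from the 60642 gene names of the count table: 17 glycolytic enzymes, 4 glucose or lactate transporters, 3 regulators of glycolytic flux, 7 targets of the hypoxia-inducible factors (HIF) and 2 HIF alpha subunits. All 33 names were found, 31 passed the filter on low counts and were tested, and the other two were LDHB and CA9. The libraries formed 3 groups of 3: the vector control, cells overexpressing EMX1-FL, the full-length isoform of the homeobox factor EMX1, and cells overexpressing EMX1-X1, an isoform with an alternative terminal exon. All 3 groups came from the same line, carried a stably integrated lentivirus and had been selected with puromycin, and the labels give no low-oxygen treatment. The labels do not say that replicates were separate transductions or cultures, so p-values measure the spread between these libraries, which may be technical.

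Glycolysis splits glucose into pyruvate through a chain of cytosolic enzymes, most of which exist as isozymes encoded by separate genes. Lactate dehydrogenase turns pyruvate into lactate, and monocarboxylate transporters carry lactate across the plasma membrane. HIF1A and EPAS1 encode the oxygen-labile subunits HIF-1α and HIF-2α. Prolyl hydroxylases mark these proteins for destruction when oxygen is present, so their mRNA level is not a measure of HIF activity. When stabilised, they bind DNA at a short core sequence and raise many glycolytic genes and such targets as CA9, BNIP3, ADM and EGLN3. Liver cancers often show high levels of glycolytic mRNAs.

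The libraries held between 21562703 and 25197970 counted read pairs. EMX1 had 218, 229 and 313 counts in vector libraries, 5660, 3202 and 3145 in EMX1-FL and 3479, 7083 and 7133 in EMX1-X1, higher in all 6 overexpression libraries. Hepatocyte markers were near 0, with 4 of 7 (TTR, SERPINA1, HNF4A and AFP) at 0 in all vector libraries and a summed level of 0.48 to 0.814 CPM (counts scaled to a fixed library total) there, 1.64 to 2.68 CPM in EMX1-FL and 0.915 to 1.9 CPM in EMX1-X1. The 4 mesenchymal markers summed to between 1161 and 1840 CPM, the 3 epithelial markers to between 4.37 and 8.89 CPM, and the 3 endothelial and 3 leukocyte markers to less than 0.7 CPM in every library. The mesenchymal sum was mostly VIM, at 1257 CPM in the vector control, which did not pass against it in either group. FN1 was higher in EMX1-FL (log2 fold change 0.60, edgeR adjusted p = 0.216) and EMX1-X1 (0.55, edgeR adjusted p = 0.433), and CDH2 was higher in both too (0.58 and 0.48, edgeR adjusted p = 0.7 and 0.609). ZEB1 was higher in EMX1-FL (1.22, edgeR adjusted p = 0.837) and the epithelial CDH1 in EMX1-X1 (0.75, edgeR adjusted p = 0.584), all at an unadjusted p under 0.05, and the hepatocyte marker ALB was higher in both groups by the same rule (1.46 and 1.11, edgeR adjusted p = 0.467 and 0.576). The part of these markers in the results was not tested. Beside the groups, the libraries fell into 2 clusters along the first principal component, which held 39.6% of the variance. Vector control replicates 1 and 2, EMX1-FL replicates 2 and 3 and EMX1-X1 replicate 1 made up cluster A, and vector control replicate 3, EMX1-FL replicate 1 and EMX1-X1 replicates 2 and 3 made up cluster B. The clusters are not a batch named in the labels. In cluster B lay 2 of the 3 EMX1-X1 libraries but 1 of the 3 in each other group. Values within clusters are therefore given for those of the 33 genes that passed in a comparison. They are differences of mean log2 CPM between 1 or 2 libraries on each side and carry no test. A prior count of 2 was added before the log, which shrinks the differences of genes with few counts. EMX1-FL replicate 1, the EMX1-FL library of cluster B, stood apart from its group, and counts of genes are given with and without it.

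First, the levels in the vector control were ordered on a scale that corrects for gene length, TPM, in which all genes of a library share a fixed total. GAPDH, the dehydrogenase of the middle of the pathway, was the highest at 1768 ± 208 TPM (SD, n = 3) and ranked 31st of all gene names. Enolase ENO1 followed at 901 ± 87.4 TPM. Phosphoglycerate mutase PGAM1 (488 ± 80.5 TPM), triosephosphate isomerase TPI1 (459 ± 54.6 TPM) and pyruvate kinase PKM (418 ± 51.3 TPM) came next, and their ranges overlapped from each to the next. The kinase PGK1 was at 295 ± 38.5 TPM, LDHA at 274 ± 40.8 TPM and the isomerase GPI at 217 ± 31.4 TPM, again with overlapping ranges. HIF1A was the highest gene outside the enzymes, at 182 ± 51.4 TPM. Of the 32 pairs of neighbours in this order, 14 did not overlap in the 3 vector libraries. TPM here divides by the length of all annotated exons of a gene, 8571 bases for PKM and 2396 for GAPDH, so the order depends on the annotation. In CPM, without that correction, the means were ordered otherwise. ENO1 stood at 1347, GAPDH at 1215, PKM at 1027, and PGAM1 and TPI1 at 356 CPM each.

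**Figure D1:**
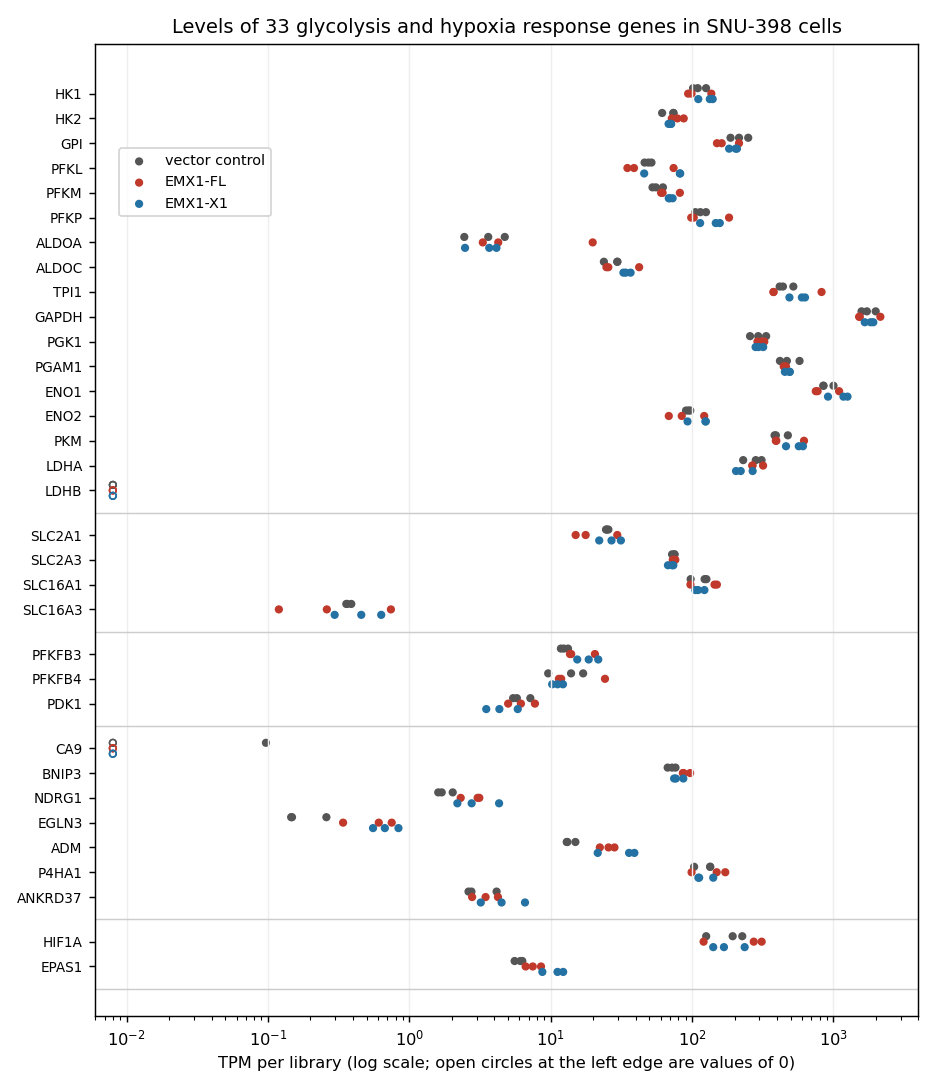
Level of each gene in each library, in TPM on a log axis, grouped by role (enzymes, transporters, flux regulators, HIF targets, HIF alpha subunits); each point is 1 library of vector control, EMX1-FL or EMX1-X1. Levels ran from 0 for LDHB to 2151 TPM for GAPDH, with most enzymes near the top and EGLN3, SLC16A3 and CA9 near the bottom.

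The 7 HIF targets took places from 10 to 32 in the TPM order. P4HA1, a subunit of the collagen prolyl 4-hydroxylase, was at 124 ± 17.9 TPM in the vector control and the mitophagy receptor BNIP3 at 72 ± 4.59 TPM. ADM, which encodes the vasodilator peptide adrenomedullin, was at 13.7 ± 1.1 TPM and ANKRD37, an ankyrin repeat gene, at 3.18 ± 0.845 TPM. The stress-response gene NDRG1 was at 1.78 ± 0.224 TPM and EGLN3, the HIF prolyl hydroxylase PHD3, at 0.184 ± 0.0648 TPM. The regulators were of middle or low level: PFKFB4 at 13.5 ± 3.71 TPM and PFKFB3 at 12.5 ± 0.733 TPM, which make and degrade the phosphofructokinase activator fructose 2,6-bisphosphate, and PDK1, which inhibits pyruvate dehydrogenase, at 6.13 ± 0.933 TPM. BNIP3 has 39 numbered pseudogene rows, and adding their counts to those of the gene changed none of the numbers of genes that passed.

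Summed over the 33 genes, the level was 6001 ± 537 TPM in the vector control, 6168 ± 985 in EMX1-FL and 6563 ± 468 in EMX1-X1 (SD, n = 3 each). The 17 enzymes made up 5350 ± 620, 5397 ± 1132 and 5883 ± 527 TPM of these sums. By library, the enzymes summed to 4822, 5195 and 6033 TPM in the vector control, 6703, 4789 and 4699 TPM in EMX1-FL and 5303, 6015 and 6332 TPM in EMX1-X1. The groups overlapped, and the highest value of each group came from a library of cluster B.

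Isozyme choice was then compared within each enzyme family, as the share of the family's TPM. Hexokinase was split between HK1, 61.7% ± 1.75 in the vector control, and HK2, 38.3% ± 1.75, and HK1 stood at 57.8% ± 2.85 in EMX1-FL and 64.5% ± 3.28 in EMX1-X1. Of the phosphofructokinase subunits, PFKP held 52.1% ± 1.04, PFKM 25.7% ± 1.26 and PFKL 22.2% ± 0.581 in the vector control. ENO1 held 90.5% ± 0.833 of the enolase level, the rest being ENO2, and this share was 90.6% ± 0.907 in EMX1-FL and 90.7% ± 0.307 in EMX1-X1. Of the 2 glucose transporters, SLC2A3 (GLUT3) held 74.7% ± 0.287 and SLC2A1 (GLUT1) the rest, and of the 2 lactate transporters SLC16A1 (MCT1) held 99.7% ± 0.0375 over SLC16A3 (MCT4), which hypoxia induces in many cells. PFKFB3 held 48.7% ± 7.66 of the sum of the 2 PFKFB genes in the vector control, 51.5% ± 4.89 in EMX1-FL and 62.2% ± 1.97 in EMX1-X1. HIF1A held 96.6% ± 1.22 of the HIF alpha level in the vector control, 96.4% ± 1.91 in EMX1-FL and 94.1% ± 2.03 in EMX1-X1. All of these are SD over 3 libraries, and the shares are a description without a test that depends on the exon lengths behind TPM.

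LDHB (chr12:21635342-21757857, minus strand, GRCh38), which encodes the heart-type lactate dehydrogenase subunit, had 0 counts in all 9 libraries. A count of 0 allows a level of up to 3 counts, 0.119 to 0.139 CPM of raw library totals depending on the library, and this limit covers counting error only. Of the exon bases of LDHB, 33.4% overlap AC010197.2, which had 0 counts too, and its 3 pseudogene rows were also at 0. Whether these values of 0 come from the cell line or from the annotation and counting cannot be told apart here, so LDHA and LDHB are not compared. CA9 (chr9:35673918-35681159, plus strand), which encodes the HIF-induced carbonic anhydrase IX, had 1 count among 211634563, in vector control replicate 2, and no fold is given for it. Of the exon bases of CA9, 36.1% overlap ARHGEF39, and read pairs on such bases were not counted.

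ALDOA (chr16:30064164-30070457, plus strand) was low for a housekeeping aldolase, at 3.6 ± 1.14 TPM in the vector control, against 27.7 ± 3.36 TPM of ALDOC. Of its exon bases, 54.7% overlap AC093512.1 or AC093512.2, so many ALDOA read pairs could not be assigned, and the ALDOA level is uncertain. The vector libraries had 59, 89 and 135 ALDOA counts, those of EMX1-FL 467, 81 and 91 and those of EMX1-X1 101, 60 and 94. EMX1-FL replicate 1 lay above all others, while AC093512.2 had between 47 and 102 counts over the 9 libraries.

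The promoters of ADM, EGLN3 and EPAS1, which are described most fully below, are shown for the core of the HIF response element, ACGTG or GCGTG, searched on both strands. The palindrome CACGTG holds ACGTG on both strands and was counted once on each. The sequences are from RefSeq (GRCh38.p14), 5′ to 3′ on the strand of the gene and ending just before its start, with the matches in capitals. The RefSeq starts of EPAS1 and EGLN3 lie inside these genes as the count table annotates them. For EGLN3 the last 7 bases, which the annotation of the count table places in an exon, were left out.
ADM, chr11:10304823-10305072, plus strand: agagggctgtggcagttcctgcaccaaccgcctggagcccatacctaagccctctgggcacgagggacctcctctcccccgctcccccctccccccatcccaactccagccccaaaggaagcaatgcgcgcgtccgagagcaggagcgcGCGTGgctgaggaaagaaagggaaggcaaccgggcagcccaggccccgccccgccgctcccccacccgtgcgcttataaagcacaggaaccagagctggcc
EGLN3, chr14:33951082-33951324, minus strand: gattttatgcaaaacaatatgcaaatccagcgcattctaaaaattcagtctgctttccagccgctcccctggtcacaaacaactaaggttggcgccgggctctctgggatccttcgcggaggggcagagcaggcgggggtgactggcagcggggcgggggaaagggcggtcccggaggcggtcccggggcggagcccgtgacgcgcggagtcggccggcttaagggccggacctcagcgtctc
EPAS1, chr2:46297157-46297406, plus strand: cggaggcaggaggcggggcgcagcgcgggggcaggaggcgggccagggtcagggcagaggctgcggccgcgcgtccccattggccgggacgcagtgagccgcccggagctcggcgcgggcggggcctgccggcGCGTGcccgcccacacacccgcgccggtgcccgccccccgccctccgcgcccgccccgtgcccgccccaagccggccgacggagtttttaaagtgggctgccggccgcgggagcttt
The ADM and EPAS1 windows hold 1 GCGTG each and no ACGTG, and the EGLN3 window holds neither. Of the other genes that passed in a comparison, PDK1 has 2 ACGTG in 1 of its 2 windows and ALDOA 1, 2 and 1 in its 3 windows. For NDRG1 no promoter was matched.

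The HIF-regulated genes CA9, BNIP3, LDHA and PGK1, which did not pass in any comparison (CA9 was not tested), are shown beside them by the 30 bases around the ACGTG that lies nearest to the start.
CA9, chr9:35673898-35673927, plus strand: tcgtttccaatgCACGTacagcccgtacac
BNIP3, chr10:131982039-131982068, minus strand: cgCACGCgccgCACGTGccaCACGCacccc
LDHA, chr11:18394478-18394507, plus strand: cgtgggttcccgCACGTccgccggcccccc
PGK1, chrX:78104053-78104082, plus strand: aaacggaagccgCACGTctcactagtaccc
These 4 were shown because they hold ACGTG. The windows of PKM, PGAM1 and SLC2A1, none of which passed either, hold no core. In these lines CACGT and CACGC are the reverse complements of the core. The 250 bases before the start hold 1 match in CA9, 6 in BNIP3, 5 in LDHA and 3 in PGK1. Each CACGTG in BNIP3 and LDHA was counted once per strand, so these matches are more than the separate sites. RefSeq promoters were matched for 30 of the 33 genes, with more than 1 start for 11 of them, and 33 of their 57 windows (57.9%) hold ACGTG or GCGTG, against 43.2% of the 35116 windows of all genes. The homeodomain core TAATTA is in none of the 57 windows and in 4.35% of all windows. Both HIF cores contain CG, and these shares were not matched for the GC content of the windows or for the number of windows per gene. A match is only a description of these letters.

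To ask whether EMX1-FL changed these genes, it was compared with the vector control. ADM and EGLN3 were higher in EMX1-FL, by 1.72-fold and 2.87-fold, and none of the 16 enzymes tested, 4 transporters, 3 flux regulators or 2 HIF alpha subunits passed. These were 2 of the 31 genes tested at an unadjusted p under 0.05 (edgeR quasi-likelihood test), both higher, where 5.8% of all 18574 genes passed, 3.97% as higher and 1.83% as lower. For either gene a two-sided exact permutation test of 3 libraries against 3 gave p = 0.1, the smallest it allows. At the added fold threshold of the study's methods, an absolute log2 fold change of 1 or more, EGLN3 alone passed (2.42% of all genes), and no gene of the 31 reached an adjusted p under 0.05 (0.07% of all genes). With DESeq2 the adjusted p of ADM was 0.21 and that of EGLN3 0.184, and with the library cluster as a covariate ADM reached 0.0293 in edgeR. That covariate was drawn from these same data. With it 284 of the 18574 genes reached an adjusted p under 0.05, against 13 without it. With an offset for GC content in the edgeR fit, also drawn from these data, ADM reached 0.0481, where 239 of all genes were under 0.05. In bulk RNA, a change in all cells cannot be told apart from a larger change in some of them.

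ADM (chr11:10305073-10307397, plus strand) stood at 8.14, 8.55 and 10.7 CPM in the vector control, 16.3, 13.9 and 17 CPM in EMX1-FL and 13.3, 21.9 and 24.5 CPM in EMX1-X1. All 6 overexpression libraries lay above the 3 vector libraries. The EMX1-FL mean was 15.7 ± 1.58 CPM against 9.12 ± 1.36 CPM, a log2 fold change of 0.78 (standard error 0.24, adjusted p = 0.467 in edgeR's quasi-likelihood test). Within cluster A the log2 difference was 0.88 and within cluster B 0.61.

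EGLN3 (chr14:33924227-34462774, minus strand) rested on few reads: 12, 7 and 8 counts per vector library, 34, 16 and 25 in EMX1-FL and 26, 39 and 33 in EMX1-X1. Again the 3 vector libraries were the lowest of the 9. The log2 fold change in EMX1-FL was 1.52 (standard error 0.45, edgeR adjusted p = 0.413), from 0.383 ± 0.114 to 1.11 ± 0.419 CPM. Within cluster A the log2 difference was 1.00 and within cluster B 1.94. EGLN3 has 1 pseudogene row with between 0 and 6 counts, and requiring 10 counts in all libraries would leave the gene out.

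The next 3 genes by p did not pass. NDRG1 was at 4.24, 5.59 and 5.11 CPM in vector libraries against 8.38, 6.11 and 7.71 CPM with EMX1-FL, without overlap (log2 fold change 0.57, standard error 0.27, edgeR adjusted p = 0.864). ALDOA had a log2 fold change of 1.24 (standard error 0.59, edgeR adjusted p = 0.87), and its value without EMX1-FL replicate 1 was -0.07. In edgeR with no filter its adjusted p was 0.0179, where 140 of 36554 genes were under 0.05. GPI was at 539, 644 and 819 CPM in vector libraries against 626, 466 and 414 CPM with EMX1-FL, with overlap (log2 fold change -0.41, standard error 0.20, edgeR adjusted p = 0.883). Over the 31 genes, 4 separated the groups completely, all higher in EMX1-FL (ADM, EGLN3, NDRG1 and BNIP3). Of all genes tested, 10.5% did so, 5.36% as higher and 5.14% as lower.

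By role, the 16 enzymes tested had log2 fold changes between -0.41 and 1.24 with a median of -0.05. The transporters lay between -0.37 and 0.08 and the flux regulators between -0.06 and 0.27. The 6 HIF targets tested were all positive, between 0.05 and 1.52 with a median of 0.40, and 2 of them passed. Of 24 other HIF targets, 14 were positive, with a median of 0.06, and of all genes tested 56.3% were positive. Over the 31 genes the median was 0.06, and over all genes tested it was 0.04. Without EMX1-FL replicate 1, the number of genes that passed was 8 in place of 2: ADM (0.76), EGLN3 (1.24) and HIF1A (0.58) were higher in EMX1-FL, and GPI (-0.60), PFKL (-0.53), TPI1 (-0.41), ENO2 (-0.42) and SLC2A1 (-0.74) lower, in log2 fold change. Of all genes tested, 16.4% passed in that fit. PFKL, TPI1, ENO2 and HIF1A passed in this comparison in none of the other alternatives, while GPI passed in 6 of the 23 and SLC2A1 in 4.

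**Figure D2:**
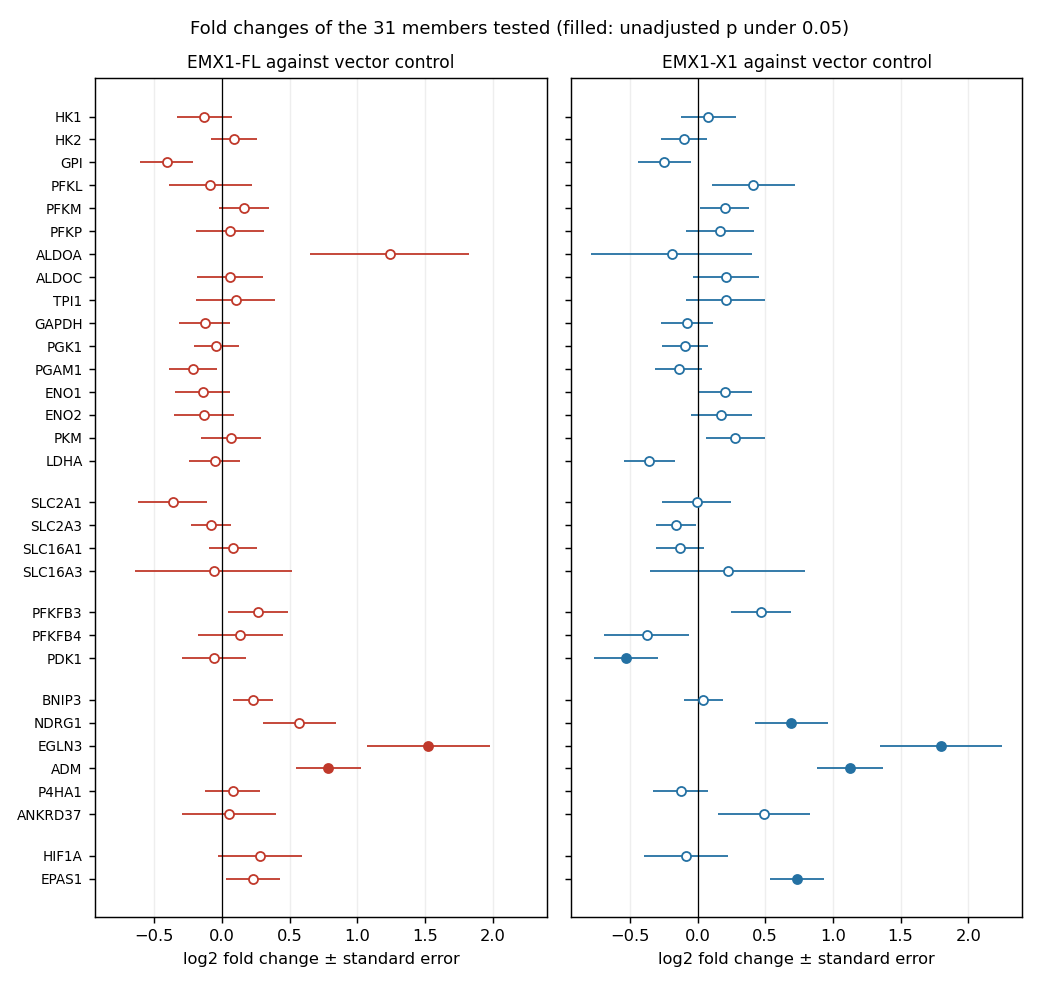
Log2 fold change (point) with its standard error (bar) of the 31 genes tested, for EMX1-FL and EMX1-X1 against the vector control, in the edgeR fit of 9 libraries; filled points have an unadjusted p under 0.05. EGLN3 and ADM are filled in both panels, EPAS1, NDRG1 and PDK1 in the EMX1-X1 panel, and no glycolytic enzyme is filled in either.

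EMX1-X1 was compared with the same vector control libraries, so its values share them with the comparison above. In EMX1-X1, ADM was 2.18-fold, EGLN3 3.48-fold, EPAS1 1.66-fold and NDRG1 1.62-fold higher, and PDK1 stood at 0.693 of the vector level. These 5 of 31 genes passed at an unadjusted p under 0.05 (edgeR), where 8.11% of all genes passed, 5.95% as higher and 2.16% as lower. ADM and EGLN3 passed with the fold threshold too (2.5% of all genes), and none reached an adjusted p under 0.05 in edgeR (0.00538% of all genes). With DESeq2 ADM did, at an adjusted p of 0.0126 and a log2 fold change of 1.10, as it did in edgeR with no filter (0.00855) and with the library cluster as a covariate (0.0359). In these fits 67, 183 and 57 of all genes reached an adjusted p under 0.05, against 1 in the fit above. No glycolytic enzyme and no transporter passed.

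The mean of ADM was 19.9 ± 5.88 CPM in EMX1-X1, a log2 fold change of 1.12 (standard error 0.24, edgeR adjusted p = 0.31). Within cluster A the log2 difference was 0.66 and within cluster B 1.11. EGLN3 was at 1.35 ± 0.27 CPM, a log2 fold change of 1.80 (standard error 0.45, edgeR adjusted p = 0.399), with 1.27 within cluster A and 1.91 within cluster B. Their promoters shown above differ in that the ADM window holds 1 core sequence and the EGLN3 window none.

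EPAS1 (chr2:46293667-46386697, plus strand) was at 10.9, 12.5 and 14.1 CPM in the vector control, 14.9, 13.1 and 16.1 CPM in EMX1-FL and 16.9, 23.5 and 22 CPM in EMX1-X1. The 3 EMX1-X1 libraries were the highest of the 9. Relative to the vector control the log2 fold change was 0.73 (standard error 0.20, edgeR adjusted p = 0.449), with 0.53 within cluster A and 0.69 within cluster B. HIF1A, the other alpha subunit, did not pass: its log2 fold change in EMX1-X1 was -0.09 (standard error 0.31, edgeR adjusted p = 0.935). Within the clusters the HIF1A difference had the other sign, at 0.12 in cluster A and 0.09 in cluster B.

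NDRG1 reached 5.7, 11.1 and 7.31 CPM in EMX1-X1, all above the vector libraries, with a log2 fold change of 0.69 (standard error 0.27, edgeR adjusted p = 0.575). It was 0.22 within cluster A and 0.81 within cluster B, and the call was lost without vector control replicate 1, vector control replicate 3 or EMX1-X1 replicate 2, with log2 fold changes between 0.39 and 0.87 over all alternatives. PDK1 was at 21.8, 30 and 26.3 CPM in the vector control, 20.3, 31 and 23.7 CPM in EMX1-FL and 23.1, 17 and 14.1 CPM in EMX1-X1, with overlap. Its log2 fold change in EMX1-X1 was -0.53 (standard error 0.24, edgeR adjusted p = 0.609), with -0.14 within cluster A and -0.77 within cluster B. PDK1 passed in 14 of the 23 alternatives, and lost the call with library size alone, with limma on either TPM scale, with the replicate number as a block, and without vector control replicate 2 or 3, EMX1-FL replicate 3, or EMX1-X1 replicate 2 or 3.

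**Figure D3:**
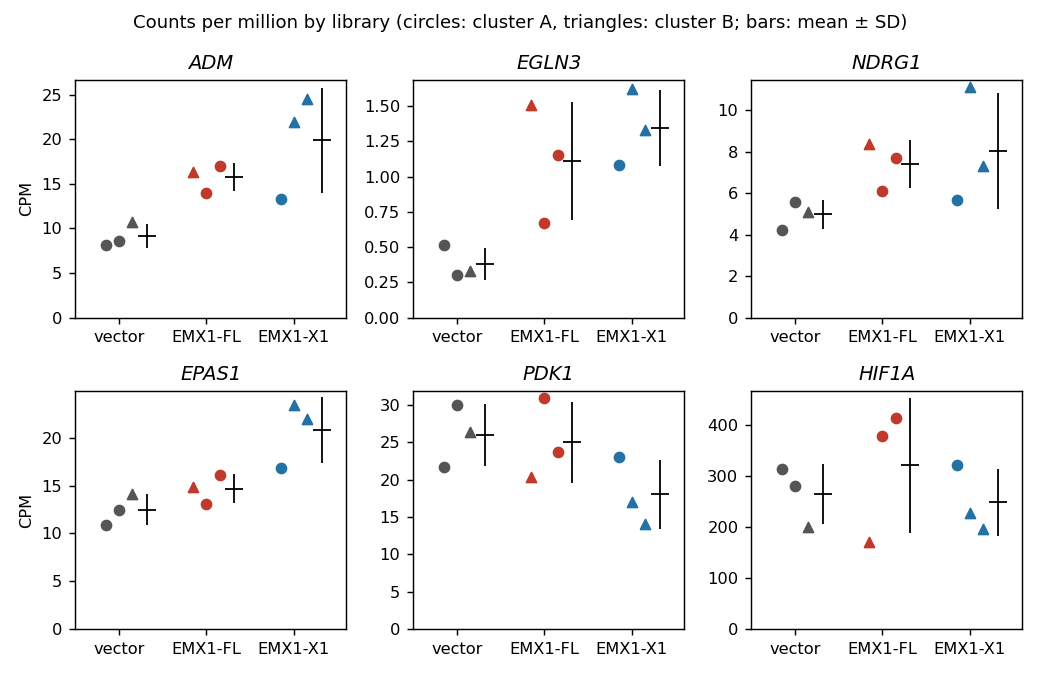
CPM of 6 genes in each library of vector control, EMX1-FL and EMX1-X1; circles are libraries of cluster A, triangles of cluster B, and the bar beside each group is the mean ± SD of its 3 libraries. ADM, EGLN3 and NDRG1 lay above the vector control in all 6 overexpression libraries, EPAS1 was highest in EMX1-X1, and HIF1A was lowest in the cluster B libraries of each group.

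The enzymes had log2 fold changes between -0.36 (LDHA) and 0.41 (PFKL) in EMX1-X1, with a median of 0.12, and 9 of 16 were positive. The transporters lay between -0.16 and 0.22. Among the HIF targets that did not pass, values ranged from -0.13 (P4HA1) to 0.49 (ANKRD37), and BNIP3 had 0.04. EMX1-X1 and the vector control were completely separated by 6 of the 31 genes: ADM, EGLN3, NDRG1, EPAS1 and PFKFB3 lay higher and SLC2A3 lower in EMX1-X1. Of all genes tested, 14.7% did so, 8.03% as higher and 6.67% as lower. Over the 31 genes the median log2 fold change was 0.08, and over all genes tested 0.01. Without EMX1-X1 replicate 2 or without vector control replicate 3, 3 genes passed (ADM, EGLN3 and EPAS1), with 3.35% and 7.22% of all genes passing in these fits.

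To ask whether the isoforms differed, EMX1-FL was compared with EMX1-X1 directly. EPAS1 was lower in EMX1-FL, with a log2 fold change of -0.50 (standard error 0.20, edgeR adjusted p = 0.611) and no overlap between the groups. The log2 difference was -0.22 within cluster A and -0.61 within cluster B. EPAS1 no longer passed without EMX1-FL replicate 2, EMX1-X1 replicate 2 or EMX1-X1 replicate 3. ALDOA was higher, with a log2 fold change of 1.43 (standard error 0.59, edgeR adjusted p = 0.611), but the groups overlapped. Its log2 difference was -0.15 within cluster A and 2.72 within cluster B. Without EMX1-FL replicate 1 ALDOA no longer passed, at a log2 fold change of 0.13. These 2 of 31 genes passed where 7.63% of all genes did, 2.98% as higher and 4.66% as lower in EMX1-FL (1.42% with the fold threshold, which ALDOA passed).

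ADM and EGLN3, the genes higher in both overexpression groups, did not pass between them: the log2 difference was -0.34 (standard error 0.24, edgeR adjusted p = 0.625) for ADM and -0.28 (standard error 0.41, edgeR adjusted p = 0.792) for EGLN3. For ADM the difference was 0.21 within cluster A and -0.51 within cluster B, and for EGLN3 -0.27 and 0.03. PDK1 (0.47), ENO1 (-0.35) and PFKL (-0.50) came next by p and did not pass, each at an adjusted p of 0.611 in edgeR. Of the 31 genes, 2 separated the isoforms completely, EPAS1 (lower in EMX1-FL) and BNIP3 (higher). Of all genes tested, 8.38% did so, 3.89% as higher and 4.49% as lower.

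The comparison of isoforms changed most when a library was left out. Without EMX1-FL replicate 1, 16 genes passed in place of 2, where 34.7% of all genes passed in that fit, with the enzymes HK1, PFKL, PFKP, ALDOC, TPI1, ENO1, ENO2 and PKM, the transporters SLC2A1 and SLC16A3, PFKFB3 and EPAS1 lower in EMX1-FL and SLC16A1, PDK1, P4HA1 and HIF1A higher. PFKL had the smallest adjusted p of these, 0.0462, at a log2 fold change of -0.93, and SLC2A1 had 0.0493 at -0.71. Without EMX1-X1 replicate 1, 6 genes passed (20.1% of all genes), and without EMX1-FL replicate 2, 1 gene (2.83%). Without EMX1-X1 replicate 2 or 3 none did, where 406 (2.12%) and 389 (2.03%) of all genes had an unadjusted p under 0.05 in edgeR.

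The 31 genes were then compared between the clusters within each group. Of the 31 genes, 19 were higher in cluster B in all 3 groups, among them 12 of the 16 enzymes, and 3 were lower in all 3 groups, namely HIF1A, P4HA1 and SLC16A1. PFKL was 0.28, 1.06 and 0.85 higher in cluster B on the log2 CPM scale in the vector control, EMX1-FL and EMX1-X1, and TPI1 0.44, 1.18 and 0.33. HIF1A differed by -0.58, -1.22 and -0.61. ADM was 0.35, 0.08 and 0.80 higher in cluster B. These are differences between 1 or 2 libraries on each side and carry no test. The clusters were cut on the expression of all genes tested, these included. The matching share over all genes was not computed, so these counts do not set the 31 genes apart.

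HIF1A counts were 7345, 6415 and 4830 in vector libraries, 3825, 8998 and 8944 with EMX1-FL and 7742, 5476 and 4857 with EMX1-X1, so that the 4 libraries of cluster B were the lowest of the 9. The GC content of the transcripts moved with this division. Its median was 56.1% over the 19 genes higher in cluster B and 40.2% over the 3 lower ones, against 48.9% over all genes tested. With an offset for GC content in the fit, GPI, NDRG1, SLC2A1 and ALDOA passed beside ADM and EGLN3 in EMX1-FL, and GPI, GAPDH and PFKFB4 beside the 5 genes in EMX1-X1. Of all genes tested, 13.6% passed in EMX1-FL and 12.7% in EMX1-X1 with the offset, against 5.8% and 8.11% without it.

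**Figure D4:**
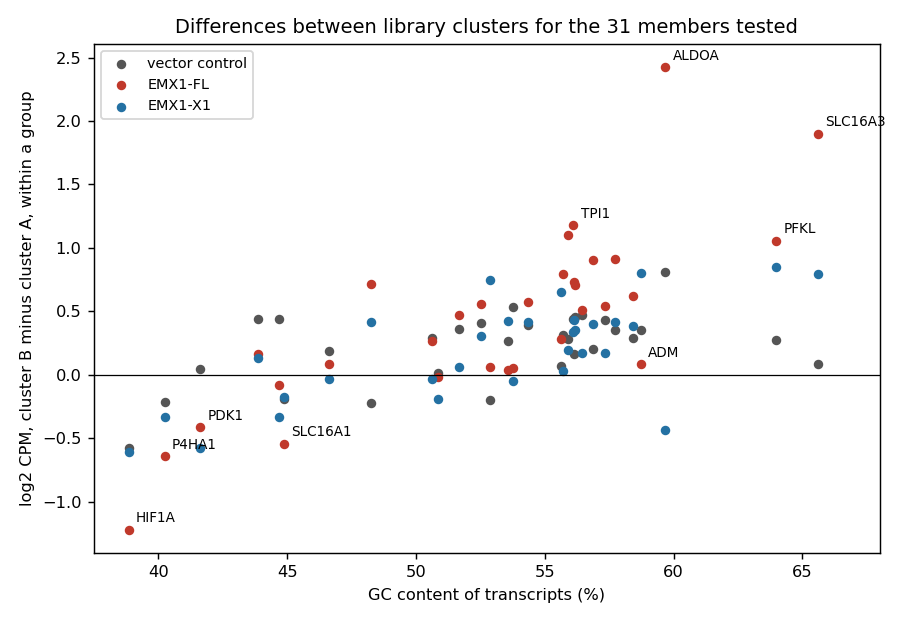
Difference in log2 CPM between the libraries of cluster B and cluster A within each group, against the GC content of the gene's transcripts in percent; each point is 1 of 31 genes in 1 group. HIF1A, at 38.9% GC, lay lowest in all 3 groups, and most genes above 50% GC lay above 0.

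Finally, 62 other genes of the pathway were examined, of which 53 were tested. In EMX1-FL 3 passed as higher and 2 as lower, in EMX1-X1 2 as higher and 2 as lower, against 5.8% and 8.11% of all genes in either direction. Between the isoforms 3 passed as higher and 3 as lower in EMX1-FL, against 7.63% of all genes. HKDC1, a hexokinase domain gene, had 3, 6 and 6 counts in vector libraries, 27, 24 and 17 in EMX1-FL and 20, 11 and 13 in EMX1-X1. It was higher in EMX1-FL by a log2 fold change of 2.20 (edgeR adjusted p = 0.196) and in EMX1-X1 by 1.48 (edgeR adjusted p = 0.548), from a level near the floor of 3 counts.

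At the mitochondrial entry of pyruvate, PDP1, the phosphatase that activates pyruvate dehydrogenase, was higher in EMX1-FL (log2 fold change 0.71, edgeR adjusted p = 0.387), and PDK2, a kinase that inhibits it, was lower (-0.62, edgeR adjusted p = 0.698). PDK2 was also lower in EMX1-FL than in EMX1-X1 (-0.80, edgeR adjusted p = 0.611). PGM1, which interconverts glucose phosphates, was lower in EMX1-FL (-0.39, edgeR adjusted p = 0.828). In EMX1-X1 the glycogen branching enzyme GBE1 (-0.58) and the adenylate kinase AK4 (-0.47), both HIF targets, were lower, each with an edgeR adjusted p of 0.575. Between the isoforms KDM4B (-0.53) and G6PC3 (-0.51) were lower and INSIG2 (0.54), GBE1 (0.51) and PGM2 (0.47) higher in EMX1-FL, each with an edgeR adjusted p of 0.611. The transcripts of the lower genes held 61.1% (KDM4B), 58.5% (PDK2) and 57.5% (G6PC3) GC. Those of the higher genes held 37.3% (INSIG2), 40.1% (GBE1) and 43.1% (PGM2), and AK4 was at 44.1%. The clusters, which moved with GC content, are divided unevenly between the isoforms. Their part in these differences was not tested. None of the 6 HIF partners and oxygen sensors tested (of ARNT, ARNT2, HIF3A, EGLN1, EGLN2, VHL and HIF1AN) passed in any comparison, with log2 fold changes between -0.29 and 0.05 in EMX1-FL and between -0.23 and 0.48 in EMX1-X1.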

How the data were processed

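The 9 SNU-398 libraries were assigned to groups from their labels. Unnormalized counts per gene were deposited, and so were the authors' log2(TPM + 1) values, a log2 scale, which equalled values recomputed from the counts and gene lengths to within 5e-06. By the header of the count table, featureCounts 2.0.1 and Ensembl release 99 were used (the labels name version 2.0.6, the methods RSEM). Strand was not set, and pairs overlapping more than 1 gene were not counted.

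Counts were fitted in R 4.3.3 with edgeR 4.0.16 (filterByExpr, TMM factors, quasi-likelihood test in 1 model of the 3 groups and 9 libraries with 6 residual degrees of freedom), with Benjamini-Hochberg adjustment over 18574 genes. CPM use TMM library sizes. A gene passed at an unadjusted p under 0.05. The exact permutation test of 3 libraries against 3 cannot give a p below 0.1. Genes with p under 0.05 in a comparison, or else the 5 with the smallest p, were described in full. The members and lists were chosen with earlier results of these data known. Alternatives were limma 3.58.1 on TPM values (pseudocounts 1 and 0.1), DESeq2 1.42.0, other scalings (RLE, upper quartile, none beyond library size), other filters, 6 libraries, replicate number, cluster, GC offset (loess span 0.3, GENCODE release 29), pseudogene rows and each library left out. With total counts of 21562703 to 25197970, counts set the precision of low genes such as EGLN3. One gene of the wider pathway list is counted but not reported by name here.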

Additional observations from a re-analysis of the deposited data

How the results depend on the processing

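Each result was recomputed under 23 alternatives. ADM in both overexpression groups and EPAS1 in EMX1-X1 passed in all 23, EGLN3 in both groups in all 22 that tested it, and their directions held. Log2 fold changes ranged from 0.70 to 0.90 for ADM in EMX1-FL (adjusted p from 0.0293) and from 0.81 to 1.33 in EMX1-X1 (adjusted p from 0.00855), and from 0.40 to 1.77 and 0.51 to 2.05 for EGLN3, whose low ends came from log2(TPM + 1). The number of genes that passed in EMX1-FL against vector control, 2, became 4 with no filter, 1 with at least 10 counts in every library (EGLN3 was not tested), 7 with the library cluster as a covariate, 6 with the GC offset, 5 with the replicate block and GC offset, and 2 to 8 with a library left out. Over all genes the share that passed moved too, from 5.8% to 15.1% with the cluster, 13.6% with the GC offset, 11.8% with block and GC offset and 4.23% to 16.4% with a library left out. It was 4.63% with no filter and 5.67% with at least 10 counts in every library. In EMX1-X1 against vector control, 5 became 9 with the cluster, 8 with the GC offset, 8 with the block and GC offset, and 3 to 7 with a library left out (all genes: 8.11%, then 12.6%, 12.7%, 10.9% and 3.35% to 17.1%). Between EMX1-FL and EMX1-X1, 2 became 1 with limma on log2(TPM + 1), 1 on log2(TPM + 0.1), 4 with no filter, 1 with only the 6 libraries compared, 4 with the cluster, 4 with the GC offset, and 0 to 16 with a library left out (all genes: 7.63% at first, 12.9% with the cluster, 9.24% with the GC offset and 2.03% to 34.7% with a library left out). The share of all genes was 7.69% and 7.43% on these limma scales, 7.49% with no filter and 4.43% with the 6 libraries. The cause was not tested, except that the filters change which genes are tested. TPI1 in EMX1-FL changed direction and passed without EMX1-FL replicate 1 (log2 fold change -0.41, against 0.10 with it), and its values with a library left out ran from -0.41 to 0.31. Of 2133 values over genes and alternatives, 22 lost a call, 75 gained one beside TPI1, and 136 of genes not called changed sign without a call.

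The replicate number as a block gave 2, 4 (PDK1 lost) and 1 (ALDOA lost) genes in the 3 comparisons. Of all genes, 3.87%, 5.23% and 4.04% passed in those fits, against 5.8%, 8.11% and 7.63% without the block. Same-numbered libraries did not deviate together: the correlations ran from -0.297 to 0.17 between vector control and EMX1-FL, -0.112 to 0.29 between vector control and EMX1-X1 and -0.522 to -0.248 between EMX1-FL and EMX1-X1, and not every library correlated best with its own number. The libraries of each group also differ by cluster, so these correlations cannot show whether same-numbered samples were prepared together. The labels give them only a shared number. With the GC offset, 1099 of 2526 genes that passed in EMX1-FL were higher, against 738 of 1077 without it, and in EMX1-X1 1078 of 2352 against 1105 of 1506. With limma on log2(TPM + 0.1) the median of all genes shifted by 0.07 in EMX1-FL and by 0.10 in EMX1-X1 against the vector control. Counts were few for EGLN3 and SLC16A3 and at or near 0 for LDHB and CA9.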
